A study of Ananas comosus with 3 samples.

Results

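Metallothioneins are small cysteine-rich proteins that hold zinc, copper and other metal ions through their thiol groups, and they can also react with oxygen radicals. Plants carry several types that differ in the arrangement of their cysteines, and transcripts of this family are known as some of the most plentiful in fruit cDNA libraries of several species. The pineapple cDNA array carried 77 metallothionein clones among its 9278 cDNA elements, and they fell into 2 contigs, that is, groups of clones assembled into one transcript sequence. Members were the clones numbered as contig 180 together with every clone whose gene name holds the word metallothionein, and both contigs carried the same description, metallothionein-like protein. Contig 180 held 28 clones and contig 182 held 49. Of 3285 contigs, contig 182 was the second and contig 180 the fifth largest by number of clones. No clone had conflicting contig numbers. The study's annotation paired contig 180 with MT3 of Arabidopsis.

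Ripe mature yellow flesh was compared with unripe mature green flesh of pineapple (Ananas comosus), both from the mid portion of field-grown fruit of Smooth Cayenne, Clone C10, without skin and pith. Labeled cDNA of both stages was hybridized together to each of 3 slides, with yellow in Cy3 and green in Cy5 on slides 1 and 3 and the dyes exchanged on slide 2. The methods do not say which slides came from separate fruit, so SDs and p-values measure the spread between these 3 hybridizations, which may be technical. Each clone was printed as a duplicate pair of spots, and its value is the log2 ratio of yellow over green after background correction and loess, an intensity-dependent normalization within the slide. The array measures flesh as a whole, so fewer cells that make a transcript and less of it per cell cannot be told apart.

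The slides were of unequal strength. The median element stood 31, 66.5 and 27.5 intensity units above local background in the yellow channel of slides 1, 2 and 3, against 27.5, 115.5 and 15.5 units in the green channel. Ratios of all contigs and single clones correlated between slides at 0.41 (1 and 2), 0.67 (1 and 3) and 0.37 (2 and 3). Fruit bromelain, a protease of pineapple flesh used as the tissue marker, was described for 5 elements, and 4 of them ranked no better than 2781 by brightness on any slide in either stage. The remaining one, JBW101F01 of contig 3033, ranked 2830 and 2278 in yellow and 205 and 171 in green on slides 1 and 2, and had no value on slide 3. The 5 elements were found by the word bromelain in their descriptions. The fruit bromelain that the paper measured by quantitative PCR has another contig number and is not among them. Their ranks therefore do not give the brightness of bromelain as a whole.

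Contig 180 was among the brightest sequences of both stages and averaged higher in mature yellow flesh, but not beyond the spread between slides. Its log2 ratio was -0.19 on slide 1, 0.63 on slide 2 and 0.88 on slide 3, so that yellow exceeded green on 2 slides and fell short of it on the other. The mean was 0.44 ± 0.56 (SD, n = 3), a 1.36-fold higher ratio with a 95% interval of -0.27 to 1.15 on the log2 scale. In limma's moderated test the adjusted p was 0.665 over 7773 features, each of them a contig or an unnumbered clone. Leaving out slide 1 gave 0.76, and leaving out slide 3 gave 0.22.

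Contig 182 had log2 ratios of -0.34, -0.035 and -0.13 on slides 1 to 3, below 0 on each of them. Its mean was -0.17 ± 0.16 (SD, n = 3), lower in yellow, with a 95% interval of -0.41 to 0.072. The limma adjusted p was 0.634. Before loess contig 182 stood at 0.026, -0.59 and 0.21 on slides 1 to 3, so the slides did not share a direction there. The difference between the contigs, 180 minus 182, was 0.15, 0.67 and 1.02 on the 3 slides and averaged 0.61 ± 0.43 (SD). It had one direction on every slide, and the exact two-sided permutation of its signs gave p = 0.25, the smallest value that 3 slides allow. With median centring in place of loess this difference was -0.065, and with plain background subtraction it was 0.048.

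Of contig 180's 28 clones, 26 had a mean ratio above 0 and 2 below it, where 52.8% of all 9275 elements tested lay above 0. The median clone stood at 0.47, against 0.0065 over all elements, and the range was -0.53 to 1.06. The clones of one contig share their target RNA and their slides, so these counts are no replicates of the stages. On slide 1 only 10 of the 28 clones were higher in yellow, and on slides 2 and 3 it was 27 each time, where 51, 50.1 and 52.8% of all elements were higher. The median clone stood at -0.17, 0.77 and 0.98 on the 3 slides, so that most of the 28 shifted together from slide to slide. Duplicate spots of a clone lay much closer, with a median difference of 0.058, 0.062 and 0.038 log2 units.

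**Figure D1:**
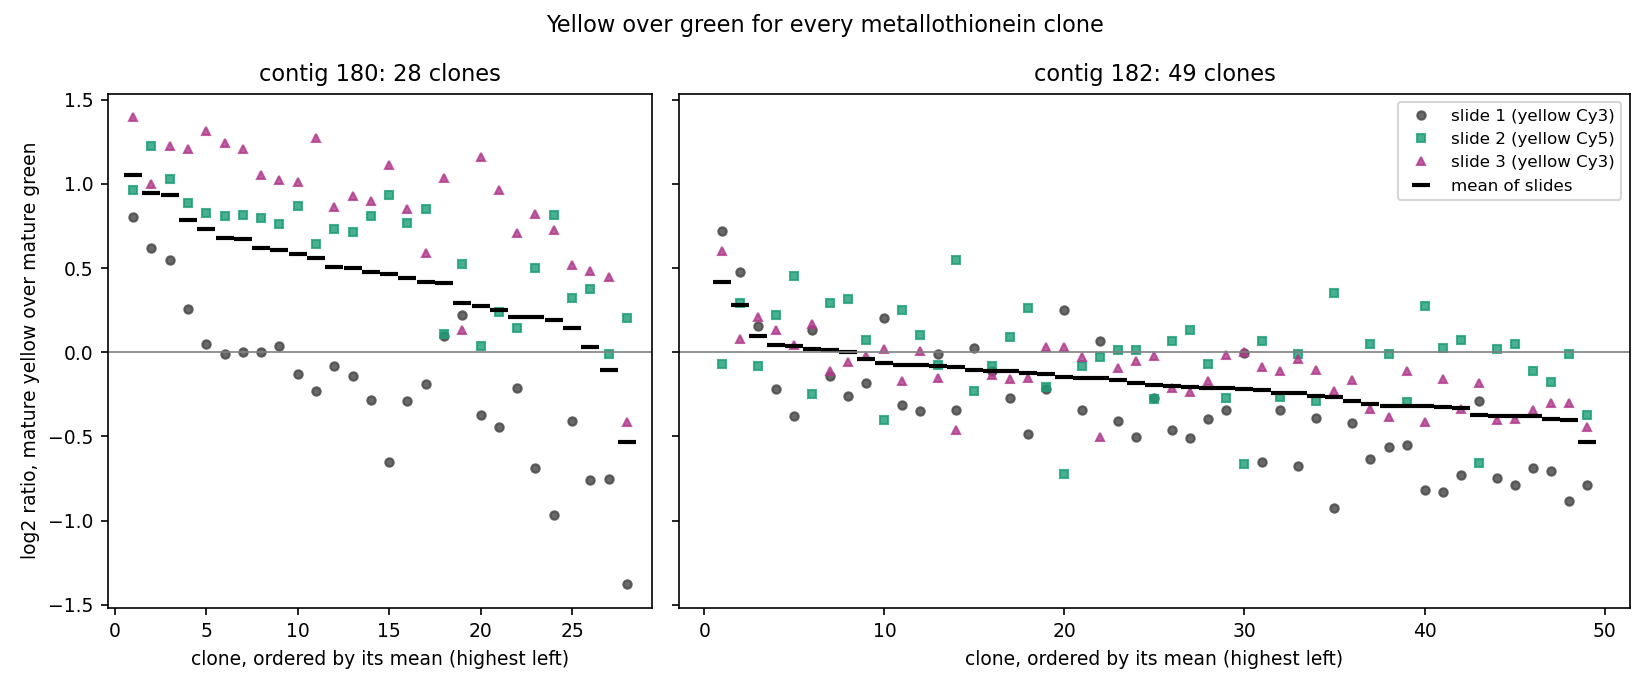
Log2 ratio of mature yellow over mature green (vertical axis) for each of the 28 clones of contig 180 and 49 clones of contig 182, ordered by their mean, with a point for each slide and a bar for the mean of the slides. The clones of contig 180 lay mostly above 0 on slides 2 and 3 and around or below 0 on slide 1, and those of contig 182 lay mostly below 0 on slides 1 and 3 and on both sides of it on slide 2.

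In the fit with each element on its own, 9 clones of contig 180 were 1.5-fold or more higher in yellow, beside 4.66% of all elements, and 10 were higher on all 3 slides, beside 18.9%. None was called changed, which took a fold of 1.5 and an adjusted p below 0.05, beside 2.39% of all elements, while 4 had an unadjusted limma p under 0.05, beside 11.5%. JBW092E06, the brightest clone, had ratios of 0.80, 0.96 and 1.40 and the highest mean, 1.06 ± 0.31 (SD, n = 3) and an adjusted p of 0.0857 from limma. JBW055D04 followed with 0.62, 1.23 and 0.998 and a mean of 0.95 (adjusted p = 0.108). JBW053A04 had 0.55, 1.03 and 1.23 and a mean of 0.94 (adjusted p = 0.140). These 3 clones were higher in yellow on every slide. They also hold the 6 spots of the contig that reached 60000 units or more in green on slide 2, near the ceiling of the scanner, while 1 spot, of JBW055D04, did so in yellow. How far the ceiling moved their slide 2 ratios was not tested.

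The lowest clone of contig 180 was also its dimmest. JBW060B01 had ratios of -1.38, 0.20 and -0.42 and a mean of -0.53, and its median brightness rank was 1438, against 4 for JBW092E06. JBW039F10 had -0.75, -0.0099 and 0.44 with a mean of -0.11, and JBW073B08 had -0.76, 0.38 and 0.48 with a mean of 0.033. Each of these lowest clones had slides of both signs.

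Across the 28 clones of contig 180, mean brightness and mean ratio correlated at r = 0.98, and at 0.72 before loess was applied. Within slides the correlation was 0.93, 0.78 and 0.91, against 0.29, 0.36 and 0.45 before loess. For the 49 clones of contig 182 the correlation of the means was 0.55. Each point here is a clone, all points share the same slides, and the intensities enter both measures, so these are descriptions without a test. The ratio of a contig 180 clone therefore went with its place on the intensity axis, from the dim JBW060B01 to the bright JBW092E06.

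**Figure D2:**
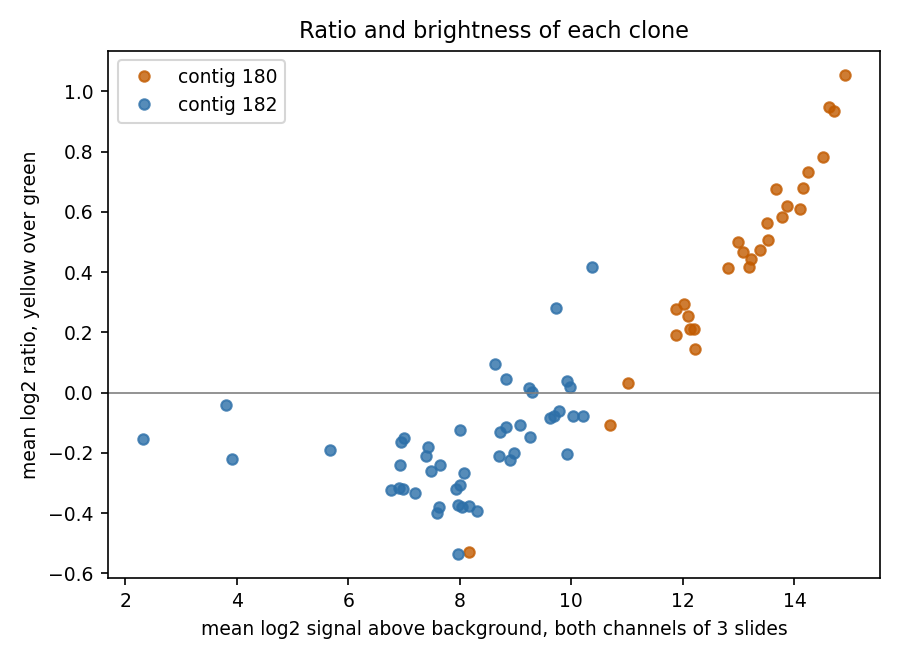
Mean log2 ratio of yellow over green (vertical axis) against mean log2 signal above local background over both channels of 3 slides (horizontal axis), 1 point for each metallothionein clone. Brighter clones of contig 180 had higher ratios (r = 0.98 over 28 clones), and the clones of contig 182 were dimmer.

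Of the 28 clones, 21 had their contig number from the start and 7 received it only after later sequencing, 6 of them from clones that had been unsequenced and 1 from a poor sequence. The study sequenced such clones because they had passed its own limits for a change on these slides, so those 7 are no independent evidence of a direction. Of these 7, 6 carried the number in only 1 slide's list of spots past the study's 2 SD test. The remaining 1 carried it for all 3 slides, and all 7 were listed on every slide. All 7 had a mean above 0, with a median of 0.25, against 0.56 for the 21, of which 19 lay above 0. The 7 were dimmer, with a median brightness rank of 164, against 43 for the 21. With the 21 alone contig 180 averaged 0.50.

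Of the 49 clones of contig 182, 8 had a mean ratio above 0 and 41 below it, where 47.2% of all elements lay below 0. The median was -0.19 and the range -0.54 to 0.42, so that no clone reached 1.5-fold in either direction, where 4.44% of all elements were lower by that much. None was called changed, beside 2.39% of all elements, and 6 had an unadjusted limma p under 0.05, or 12.2% of them, beside 11.5% of all elements, a share near the background. Yellow was higher in 8 of 49 clones on slide 1, 23 of 48 on slide 2 and 11 of 48 on slide 3.

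A ratio below 0 on all 3 slides was found for 16 clones of contig 182, beside 17.9% of all elements: JBW036C12, JBW038H09, JBW042H11, JBW051E12, JBW056E08, JBW058B08, JBW060A01, JBW060B07, JBW061F03, JBW062F04, JBW063B09, JBW063C07, JBW085C07, JBW086H12, JBW095G10 and JBW096B06. Their means ran from -0.54 to -0.079. JBW063C07 was the lowest, with -0.79, -0.37 and -0.44 and a mean of -0.54 ± 0.22 (SD, n = 3), and its adjusted limma p of 0.197 was the smallest of the contig.

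Another 17 clones averaged below 0 but stood above it on slide 2, the slide with exchanged dyes, and on no other: JBW052C04, JBW052F03, JBW053A08, JBW055G02, JBW057H03, JBW058B02, JBW083C12, JBW083F03, JBW085B07, JBW085D02, JBW087F04, JBW090D07, JBW095F05, JBW097B08, JBW100D10, JBW100E11 and JBW102D12. Their means ran from -0.38 to -0.041. JBW061G07 and JBW080E08 likewise averaged below 0 and were above it on slide 3 alone, and JBW039E04 and JBW092A08 on slides 1 and 3. JBW056G04 averaged below 0 with positive values on slides 2 and 3. JBW084G07 averaged -0.15, but its signals on slides 1 and 2 were -6.5 and -0.5 units in yellow and -1.5 and 0.5 units in green, at the level of the local background. JBW080E08, at 0.31 units in yellow and 0.22 in green, and JBW102D12, at -7.7 and -1.6 units, were below the limits set by the blank spots on slide 3, so their signs there have no signal behind them. JBW083D07, with no value on slide 2, averaged -0.29, and JBW080F10, with none on slide 3, averaged -0.10.

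JBW040A09, with 0.47, 0.29 and 0.076 and a mean of 0.28, was the 1 clone of contig 182 that was higher in yellow on all 3 slides. JBW078E12 had the highest mean of the contig, 0.42, from 0.72, -0.070 and 0.60. The other clones with a mean above 0 were JBW050G05 and JBW062E06, positive on slides 1 and 3, JBW059D11 and JBW087H05, positive on slides 2 and 3, and JBW084D11 and JBW090F09, positive on slide 2 alone. These 6 had means of at most 0.095.

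The clones of the 2 contigs overlapped. Of contig 180's clones, 16 had a mean above that of every contig 182 clone, and no contig 182 clone exceeded the median of contig 180. Among the clones of contig 180 the ratios correlated between each pair of slides (r = 0.54 for slides 1 and 2, 0.61 for 1 and 3, and 0.48 for 2 and 3; 28 clones). Among those of contig 182 they did so between slides 1 and 3, which share the dye order (r = 0.69, 48 clones), but not with slide 2 (r = -0.24 with slide 1 and -0.17 with slide 3).

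Brightness set the 2 contigs apart more plainly than the ratio did, although it also depends on the DNA printed and on labeling and is no transcript level. The median clone of contig 180 gave 7260, 15116 and 7972 units above background in yellow on slides 1 to 3, against 13811, 19795 and 5214 units in green. For contig 182 the median clone gave 334, 439 and 139 units in yellow and 360, 654 and 130 units in green. Contig 180 made up 0.30% of the elements, and its share of the summed signal was 9.50, 12.3 and 15.7% in yellow, against 9.81, 5.46 and 9.92% in green. Every one of its 56 spots passed the study's 2 SD test on every slide. Contig 182 had 88, 85 and 63 of 98 spots past it. Of all element spots, 29.1, 33.4 and 23.1% passed. For 7 clones of contig 180 the outcome was partly fixed by their choice, since their number came from the list of spots past that test. The 42 spots of the other 21 clones passed on every slide as well.

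Ranked within each channel, which needs no ratio and no loess, the median clone of contig 180 was at place 46.5, 32.5 and 31 from the brightest in yellow and at 84.5, 152 and 80.5 in green, among 9213, 9231 and 9187 elements. Of the 28 clones, 22, 27 and 27 ranked better in yellow. The 20 brightest elements included 6, 9 and 10 clones of contig 180 in yellow, against 4, 2 and 5 in green. Among the 20 brightest in yellow on every slide were JBW052F12, JBW053A04, JBW055D04, JBW090E08 and JBW092E06, and JBW092E06 was also among them in green on every slide.

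These ranks turned in part on another contig. Contig 124, the largest on the array with 152 clones and described among the spots past the 2 SD test as a bromelain inhibitor, took 1.68, 2.15 and 1.68% of the summed signal in yellow, against 34.97, 36.7 and 29.7% in green, and filled none of the top 20 places in yellow, against 10, 9 and 5 in green. With its clones left out, the median rank of contig 180 was 46.5, 32.5 and 31 in yellow and 46.5, 67 and 46 in green. Then 7, 26 and 25 of the 28 clones ranked better in yellow, so that slide 1 went the other way, as it did in the ratios. The share of the remaining signal was 9.67, 12.6 and 16.02% in yellow, against 15.1, 8.63 and 14.1% in green.

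**Figure D3:**
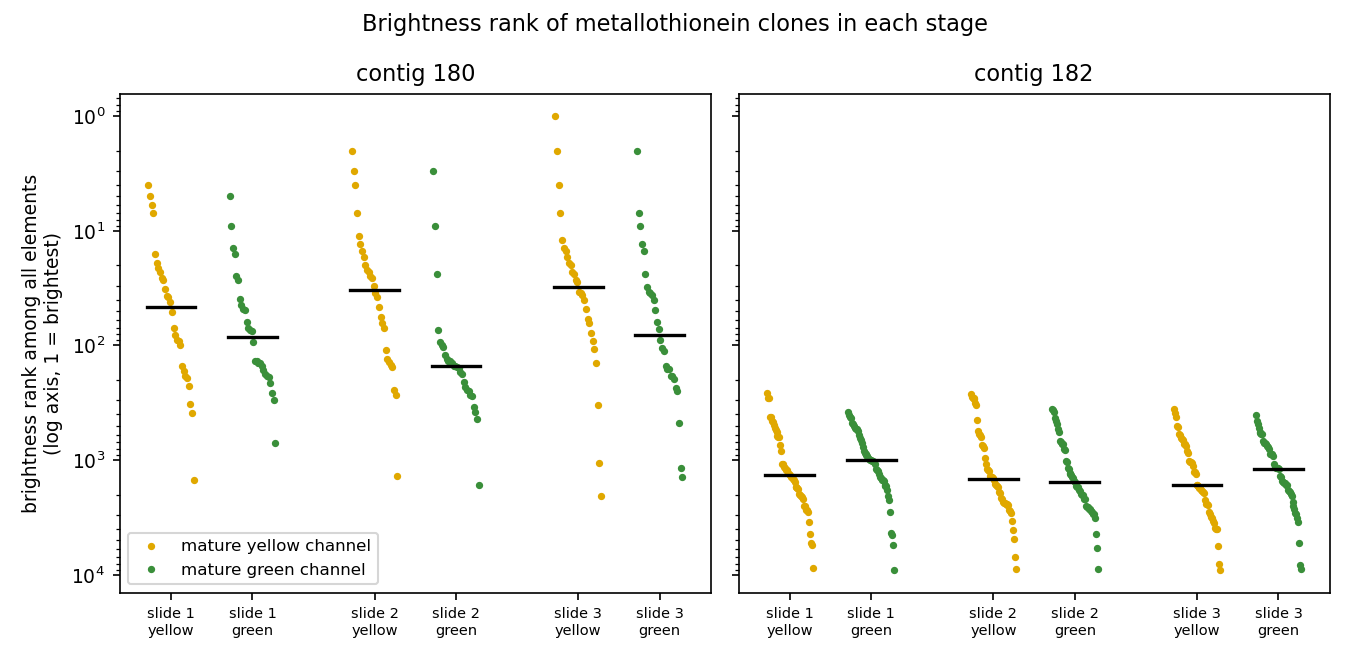
Brightness rank (log axis, 1 is the brightest) of each clone of contig 180 and contig 182 in the yellow and the green channel of each slide, with a line at the median. The medians of contig 180 lay between 31 and 152 and those of contig 182 between 996 and 1646.5.

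No clone of contig 182 was among the 100 brightest elements. Its median rank was 1344, 1462 and 1646.5 in yellow and 996, 1548 and 1185 in green, and 37 of 49, 15 of 48 and 35 of 48 clones ranked better in green. Without contig 124 these counts were 41, 23 and 43. Between 46 and 48 of its clones were above the limit set by the blank spots, as were all 28 of contig 180. Of all elements, 70.0 to 89.6% were above it, depending on slide and channel. That limit used the median and median absolute deviation of the blanks and differs from the limit of 2 SDs used below.

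Only on slide 2 did loess change the sign of contig 180, whose mean over the slides was -0.18 before loess. Its mean log2 ratio after background correction was -0.78, -0.42 and 0.65 on slides 1 to 3, with 0, 0 and 27 of the 28 clones above 0, and the median of all elements was 0.14, -0.32 and 0.18. The loess curve at its brightness stood at -0.59, -1.05 and -0.24, and subtracting it gave the ratios reported. Few other elements were as bright: 16, 21 and 6 non-members lay within 0.5 log2 units of the median clone's intensity, and their median ratio before loess was 0.53, -0.28 and 0.52, against -0.83, -0.35 and 0.65 for contig 180. Set against these neighbours the median clone of contig 180 differed by -1.36, -0.065 and 0.13, well below them on slide 1 and near them on slides 2 and 3. On slide 2, 1 of its 56 spots, the green one of JBW092E06, was at the limit of the scanner.

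**Figure D4:**
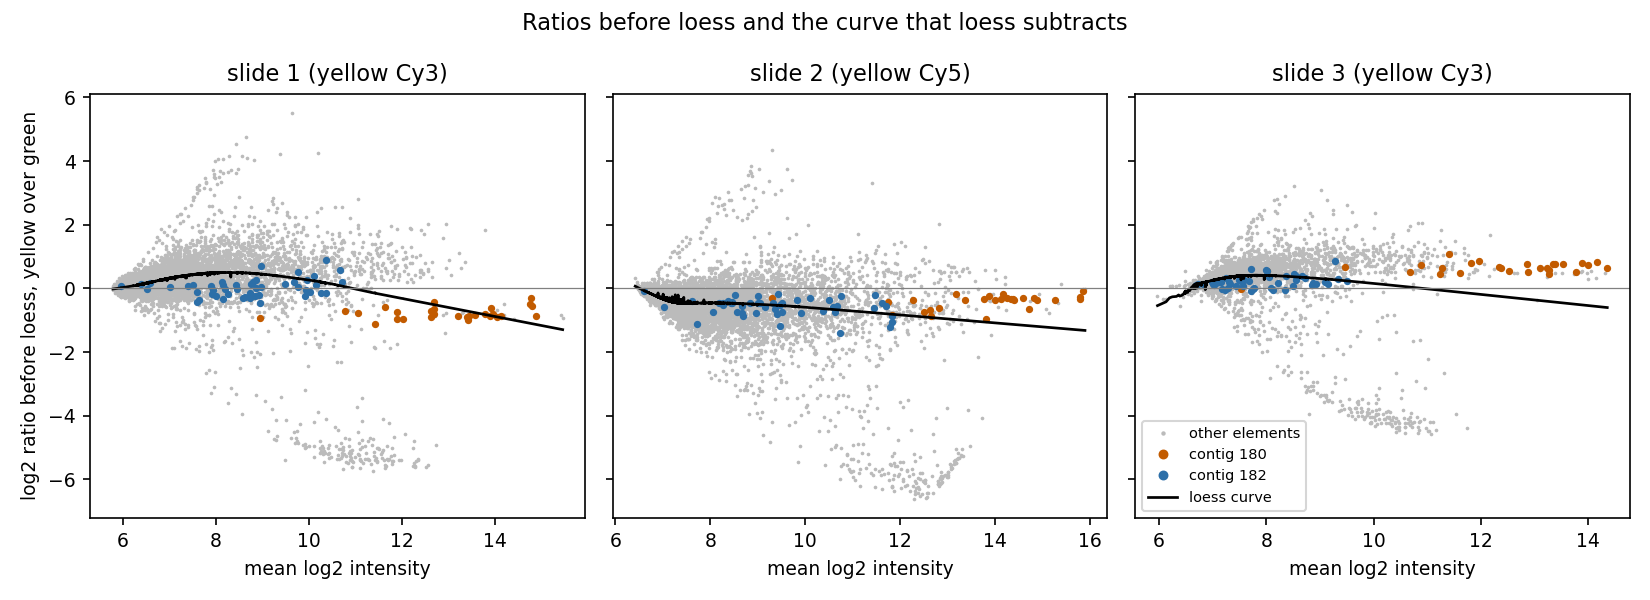
Log2 ratio of yellow over green before loess (vertical axis) against mean log2 intensity (horizontal axis) for all elements of each slide, with the clones of both contigs in color and the loess curve in black. Contig 180 lay at the bright end, where few other elements were found, below 0 on slides 1 and 2 and above 0 on slide 3, while the curve fell below 0 there on all 3 slides.

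The direction of contig 180 depended on the background correction and normalization. It averaged -0.40 with plain background subtraction, -0.19 with median centring and -0.18 without normalization. With the mean intensities deposited for spots past the 2 SD test, refitted on those spots alone, it averaged -0.29. With normexp background correction at offset 0, contig 180 averaged 0.055, from -0.93, 0.20 and 0.90 on slides 1 to 3. There 17 of its 28 clones had a mean above 0, against 26 as reported. It was 27 without background correction, 2 with median centring and 0 with plain subtraction. The study's table of processed values put it at 1.18, 2.77 and 0.66 on slides 1 to 3, after the sign of slide 2 was turned, because as deposited that column correlated at -0.86 with the ratios of the scanner values. The mean of these was 1.54, with a limma adjusted p of 0.0133, the 1 setting in which the contig was called changed. Contig 182 averaged below 0 in each setting but this one, where it stood at 0.040, from -0.24, -0.0086 and 0.37. The median over all deposited values was 0.14, 0.058 and 1.03 on slides 1 to 3. On slide 3 both contigs lay below that median. With metallothionein spots given no weight in loess, contig 180 averaged 0.42. For this metallothionein the paper reported more transcript in yellow flesh, both on the array and by quantitative PCR, a separate assay of transcript level. The PCR used biological replicates of pooled fruit and is not among the data analysed here.

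**Figure D5:**
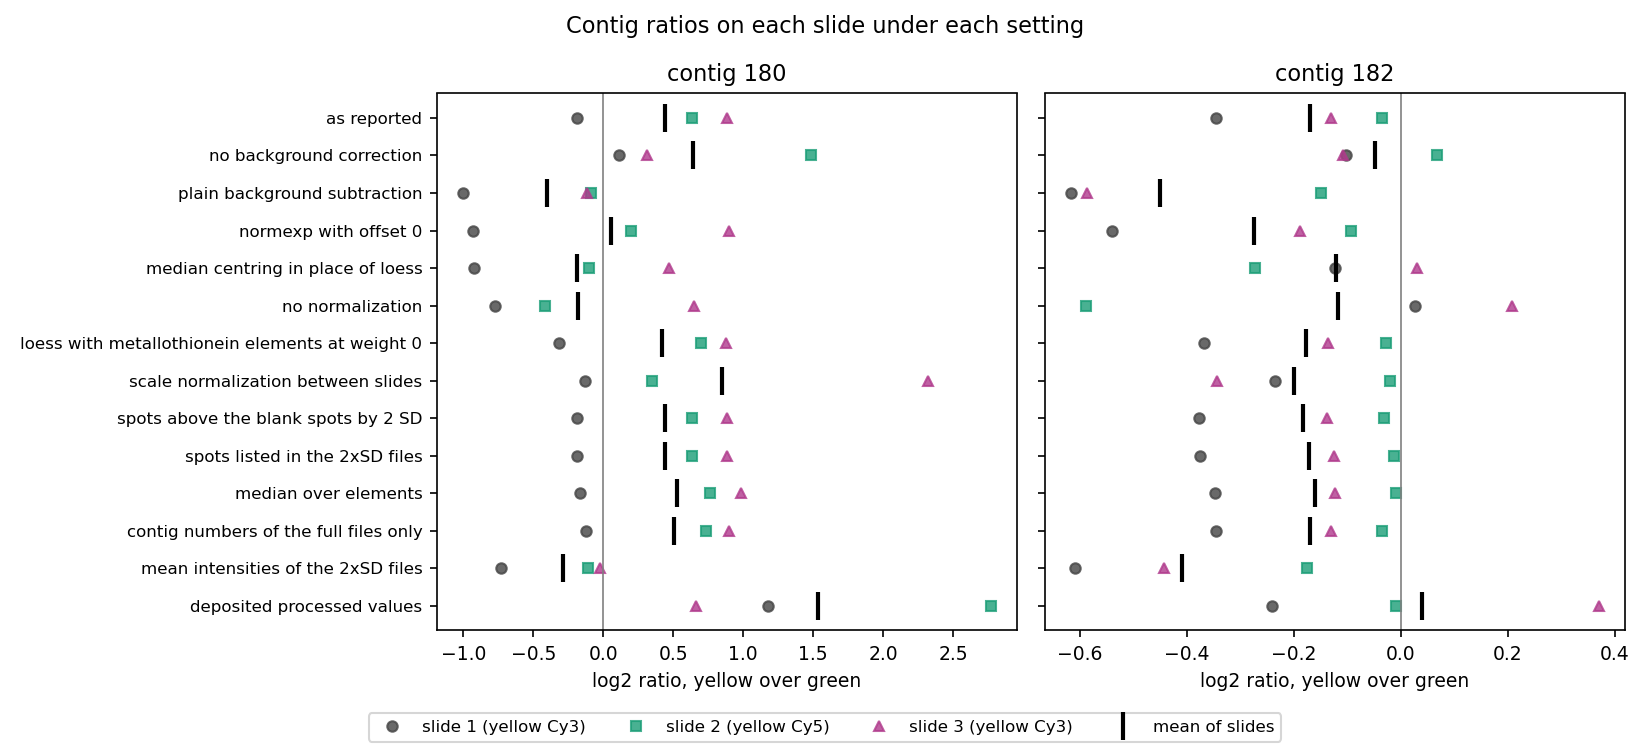
Log2 ratio of yellow over green (horizontal axis) for contig 180 and contig 182 on each slide under each processing setting, with a bar at the mean of the slides. The mean of contig 180 ran from -0.40 to 1.54, and its slide 1 value was above 0 only without background correction and in the deposited processed values.

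Over spots brighter than the blanks by 2 SDs, 3 clones of contig 180 were called higher in yellow, JBW092E06, JBW055D04 and JBW053A04, with limma adjusted p of 0.0180, 0.0292 and 0.0339, where 14.1% of the elements tested were called. They are the clones near the scanner ceiling in green on slide 2. The same 3 were called over the spots that passed the study's own 2 SD test, where 16.8% of elements were called. No clone of contig 182 was called in either setting.

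Other genes of metal handling were read from a list of 21 keywords, of which 4 matched a description, giving 8 features. Of these, 6 averaged above 0 and 2 below it, with a median of 0.077, against 0.0075 over all features, 53.2% of which lay above 0 and 46.8% below. None was called changed, beside 0.129% of all features, none was 1.5-fold or more lower, beside 2.06%, and 2 were 1.5-fold or more higher, beside 3.18%. The same 2 were the ones with an unadjusted limma p under 0.05, beside 8.95%. Both were copper-zinc superoxide dismutases, enzymes that turn superoxide into hydrogen peroxide. Contig 3200 had ratios of 0.69, 1.14 and 0.66 with a mean of 0.83 ± 0.27 (SD, n = 3; limma adjusted p = 0.231), and contig 119 had 0.87, 0.54 and 0.65 with a mean of 0.69 ± 0.17 (adjusted p = 0.170). Unlike contig 180, both were higher in yellow on slide 1 as well. The other superoxide dismutases did not share this direction on every slide. Contig 118 (copper-zinc) averaged 0.13 with values of both signs, contig 3219 averaged -0.096, and contig 461, a copper-zinc form of the chloroplast, averaged -0.17 and was below 0 on all 3 slides. A copper chaperone (contig 663), an NRAMP metal ion transporter (contig 2550) and a relative of phytochelatin synthetase (contig 2086) averaged between 0.013 and 0.11.

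The 5 contigs with ratios nearest to those of contig 180 were sought among 1399 with values on all slides and a label beyond the plain placeholders. Nearest was contig 2492, a putative kinetochore protein (root mean square difference 0.25 over 3 slides). Then came contig 15, subunit G of the vacuolar ATP synthase (0.31), and contig 2518, a thylakoid lumen protein (0.31). Contig 2050, labelled undiscovered sequence (NEMATODE) and so without a real description, stood at 0.32. Contig 1669, similar to ribosomal protein L11, stood at 0.34. The first 4 were higher in yellow on every slide, with means between 0.40 and 0.46. Non-members among the 20 brightest elements on every slide of a stage were JBW006A07, JBW008D08, JBW073B09 and JBW077E02, all unsequenced, and JBW053D04 of contig 1335, an undiscovered sequence. Their mean ratios ran from 0.62 to 0.90, near those of the bright clones of contig 180.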

How the data were processed

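The authors deposited for every spot the scanner intensity of each channel and its local background, as medians on slides 1 and 2 and means on slide 3, without background correction or normalization. For spots past their 2xSD test they deposited mean intensities with contig numbers of clones sequenced later. A deposited table of processed scores per contig (mostly the ratio, or minus its reciprocal below 1; 6 values of slide 1 and 1 of slide 2 lie between -1 and 1) served as an alternative. Its scale and centring are otherwise not stated. The median of its log2 values was 1.03 on slide 3 (687 values), against 0.14 on slide 1 (2217 values).

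Calculations used limma 3.58.1 in R 4.3.3, and figures Python 3.11.15 with matplotlib 3.10.9. Abnormal spots were left out. Intensities were corrected by normexp (offset 50) and normalized by loess (span 0.3, 4 iterations) within each slide (blanks and controls at weight 0). All ratios run as yellow over green. Duplicates, then clones of a contig, were averaged. A feature needed 2 slides. The mean was tested against 0 with Benjamini-Hochberg adjustment over all features or elements. A call took a fold of 1.5 and an adjusted p below 0.05. Brightness is signal minus local background. The procedure was also run on simulated data with planted changes. Those data held no dye trend along intensity, so that run could not test how loess handles one.

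Named were all contigs and all clones of contig 182, the 3 highest, 3 lowest, brightest and dimmest clones of contig 180, the 5 nearest contigs, the non-members that stayed among the 20 brightest, and metal genes at 1.5-fold with one direction. The members and lists were chosen with earlier results of these data known. The number of slides limits the precision. Sequences of the clones were not analysed here.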

Additional observations from a re-analysis of the deposited data

How the results depend on the processing

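Contig 180 averaged 0.44 as reported and kept its sign in 17 of 21 alternatives (0.055 with normexp, offset 0). It reversed to -0.40 with plain background subtraction, -0.19 with median centring, -0.18 without normalization and -0.29 with the mean intensities of spots past the 2 SD test. The cause was not tested. In the last setting background correction and loess were also refitted on those spots alone. On slide 3 the intensities of those spots were identical in both files (4290 of 4290). Contig 180 nevertheless stood at -0.022 there, against 0.88 as reported. With the same spots kept after the full fit, contig 180 stayed at 0.88 on slide 3. It became a call with the deposited processed values (1.54). Leaving out 1 slide at a time gave 0.22 to 0.76. Contig 182 reversed to 0.040 in the deposited values alone and ran from -0.24 to -0.083 without 1 slide. The difference between the contigs reversed to -0.065 with median centring and equally without normalization, and ran from 0.41 to 0.84 without 1 slide. It shrank to 0.048 with plain background subtraction, 0.12 with the mean intensities and 0.33 with normexp at offset 0. The exact permutation of signs gave p = 0.75 in each of these settings. No alternative called contig 182.

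Called metallothionein clones numbered 0 as reported and 3 over spots above the blanks by 2 SDs, over spots past the 2 SD test and by the methods' t-test at its limit of 0.1, which called none of them after Benjamini-Hochberg adjustment. Called features numbered 10 as reported. They were 18 without background correction, 59 with plain subtraction, 34 with normexp at offset 0, 6 with median centring, 26 without normalization, 0 with scaling between slides, 92 above the blanks, 110 past the 2 SD test, 0 with the median over clones, 68 with a dye term, 28 with trend and robust variances, 212 by the methods' t-test, 227 with contig numbers of the full files only, 115 with mean intensities and 136 in the deposited values, and 0 to 5 without 1 slide. Where 0 were called, limma's unadjusted p was under 0.05 for 748 features with scaling, 668 with the median over clones, 362 without slide 1 and 917 without slide 2. Called elements numbered 222 as reported, 397 with plain subtraction, 2 with scaling between slides, 444 above the blanks, 479 past the 2 SD test, 371 with a dye term, 550 by the methods' t-test, 447 with mean intensities and 0 to 263 without 1 slide, where the unadjusted p was under 0.05 for 666 elements without slide 1 and 1258 without slide 2, both with 0 calls.

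The median brightness rank of contig 180 was 0.771% of the elements ranked. It was 2.61% among spots past the 2 SD test and 2.27% with their mean intensities, where fewer elements were ranked. After the data were seen, ranks without contig 124 (0.519%) and contig 180 from its 7 later-numbered clones (0.26) were added. Yellow over green within a slide is itself the paired value, so no further block was fitted. On slide 3 the median clone of contig 182 stood 139 units above background in yellow and 130 in green, beside an offset of 50 that draws dim ratios toward 0.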
